A study of Mus musculus with 12 samples.

Results

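The thermogenic and browning genes considered here are 9 named genes whose products make heat in brown and beige fat cells or switch that state on: Ucp1, Dio2, Cox8b, Cox7a1 and Cpt1b as effectors, and Ppargc1a, Ppargc1b, Prdm16 and Ppara as regulators. Each gene was read from a row of the array's value table whose annotation names that gene and no other, and among several such rows the brightest on average was taken. This gave values for 8 of the 9 genes, out of 19937 genes in all. The 1 row that names Cpt1b, the muscle form of the enzyme that admits fatty acids to mitochondria, also names Gm44502, so no value is given for it. The arrays measured white adipose tissue of 18-week-old male mice that carry a knockout of Ahnak (KO) or are wild type (WT). Ahnak encodes a very large scaffold protein of the cell periphery. Mice of both genotypes were kept on regular chow or, over 12 weeks, on a high fat diet (HFD), of which fat made up 60%, protein 20% and carbohydrate 20%. The 4 groups, KO on HFD, WT on HFD, KO on chow and WT on chow, hold 3 arrays each, and all animals were kept at 24 ± 2 °C. The labels do not name the fat depot, the strain background or how the Ahnak allele was made, and they do not say that replicates are separate animals.

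Brown and beige fat cells burn fuel to make heat. Their mitochondria carry UCP1, a channel that lets protons return to the matrix without making ATP. Cold acts on these cells mainly through noradrenaline and cyclic AMP, which switch on Ppargc1a, Dio2 and Ucp1, while Prdm16 sets up and holds the brown and beige identity. White fat normally holds little of this programme, and browning is the name for its appearance there. In bulk tissue, a lower value can come from fewer cells of a type or from less RNA in each cell, and these cannot be told apart.

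For the 4 genes that passed the test in at least 1 comparison below, the promoter window of RefSeq (assembly GRCm38.p6) is shown, from 250 bases before to 50 bases after the start, on the gene's own strand. Capitals mark matches, on either strand, to the cyclic AMP response element TGACGTCA, to its first 6 bases TGACGT, which lie inside it, to the nuclear receptor site AAGGTCA and to the TATA box TATAAA. Ppargc1a lies at chr5:51567676-51567975 on the minus strand, Dio2 at chr12:90738989-90739288 on the minus strand, Cox8b at chr7:140900397-140900696 on the minus strand, and Ppara at chr15:85735526-85735825 on the plus strand.
Ppargc1a: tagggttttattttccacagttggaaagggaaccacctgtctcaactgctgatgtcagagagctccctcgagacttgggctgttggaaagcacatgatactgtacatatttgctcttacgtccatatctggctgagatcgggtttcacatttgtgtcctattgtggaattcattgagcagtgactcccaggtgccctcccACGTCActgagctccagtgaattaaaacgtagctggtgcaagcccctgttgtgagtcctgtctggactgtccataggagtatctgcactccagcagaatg
Dio2: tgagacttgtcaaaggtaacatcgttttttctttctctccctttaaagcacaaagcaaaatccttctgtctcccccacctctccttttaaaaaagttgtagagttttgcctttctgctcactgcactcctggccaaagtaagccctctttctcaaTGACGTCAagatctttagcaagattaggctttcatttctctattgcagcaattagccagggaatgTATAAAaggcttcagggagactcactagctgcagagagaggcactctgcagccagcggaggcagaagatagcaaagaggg
Cox8b: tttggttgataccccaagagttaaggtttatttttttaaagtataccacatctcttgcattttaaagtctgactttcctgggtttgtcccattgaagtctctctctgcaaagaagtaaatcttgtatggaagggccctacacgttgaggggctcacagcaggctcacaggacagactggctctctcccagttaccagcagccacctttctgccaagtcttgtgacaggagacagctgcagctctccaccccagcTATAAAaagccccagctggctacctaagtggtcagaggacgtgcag
Ppara: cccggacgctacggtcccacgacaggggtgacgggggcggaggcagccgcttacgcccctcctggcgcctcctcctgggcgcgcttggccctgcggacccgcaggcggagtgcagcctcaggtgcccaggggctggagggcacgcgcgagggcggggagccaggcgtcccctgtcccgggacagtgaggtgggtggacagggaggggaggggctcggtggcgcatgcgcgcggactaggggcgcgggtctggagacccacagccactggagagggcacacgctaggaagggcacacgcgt
The Dio2 window holds a whole TGACGTCA from base -95 to base -88 before the start and a TATAAA from base -30 to base -25. The Ppargc1a window holds TGACGT on the opposite strand, from base -50 to base -45, printed here as ACGTCA. The Cox8b window holds TATAAA from base 5 to base 10 after the start, and the Ppara window holds none of these letters and is 74.7% G and C. Of the 32851 windows of this length in the same table, 1.79% hold TGACGTCA, 7.51% hold TGACGT, 13.6% hold TATAAA and 4.72% hold AAGGTCA, which is in the window of 0 of the 7 members with an entry. A match describes these letters and shows no binding.

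Each value is a deposited log2 intensity, so a difference of 1 is a 2-fold difference, and no detection calls came with the table. Arrays of a group correlated across genes at r = 0.985 to 0.996. Ahnak had 9.58, 9.40 and 9.45 on KO arrays on HFD, 10.27, 9.68 and 10.04 on WT arrays on HFD, 9.31, 9.27 and 9.42 on KO arrays on chow, and 9.94, 10.06 and 10.08 on WT arrays on chow, so every KO array lay below every WT array. KO minus WT was -0.52 ± 0.13 on HFD (adjusted p = 0.0207) and -0.69 ± 0.13 on chow (adjusted p = 0.379). The adipocyte gene Adipoq stood between 12.45 and 13.33 on all 12 arrays, so this defining gene of the labelled tissue was high on every array. WT HFD replicate 2 stood apart: it had that lowest Adipoq value and the highest mean over 16 macrophage markers, 11.27, against 10.12 and 10.86 on the other WT HFD arrays. KO HFD replicate 1 stood apart by epithelial genes: Epcam, a surface protein of epithelia, had 7.53 there, 4.89 and 5.14 on the other KO HFD arrays, 4.95 to 5.09 on WT HFD arrays, 8.01 to 9.33 on KO chow arrays and 7.96 to 9.17 on WT chow arrays. Epithelial genes were thus high on all 6 chow arrays and on 1 HFD array. Results on members that rest on either array are given with and without it, and the gene lists have their counts with all arrays first and then without these arrays. Tests were moderated linear models in limma over all 12 arrays, a gene passed at an adjusted p under 0.05 over the 19937 genes, and changes are differences of means on the log2 scale ± SE.

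Ppargc1a encodes PGC-1α, the coactivator that drives mitochondrial biogenesis and the thermogenic response. It had 6.63, 5.90 and 6.31 on KO arrays on HFD, 5.82, 5.64 and 5.57 on WT arrays on HFD, 6.86, 6.68 and 6.74 on KO arrays on chow, and 6.56, 7.11 and 6.53 on WT arrays on chow. The WT HFD arrays were the lowest of all 12, the KO HFD arrays lay above them without overlap, and the chow arrays of both genotypes overlapped. In WT mice Ppargc1a fell on HFD by 1.06 ± 0.18, or 2.08-fold (adjusted p = 0.00289), and it passed under all 20 alternatives tried, with adjusted p between 2.49e-05 and 0.0154. In KO mice the change on HFD was -0.48 ± 0.18 and did not pass (adjusted p = 0.147), although the KO arrays on HFD and on chow did not overlap. KO minus WT was 0.60 ± 0.18 on HFD (adjusted p = 0.0533) and 0.03 ± 0.18 on chow (adjusted p = 0.997), and the difference between these differences was 0.57 ± 0.26 (adjusted p = 0.284). The difference on HFD thus stood just outside the threshold, and its size leaned on KO HFD replicate 1: without that array it was 0.43 (adjusted p = 0.191), and without KO HFD replicate 2 it was 0.79 (adjusted p = 0.0229). Without WT HFD replicate 1 it was 0.67 (adjusted p = 0.0436). A second row annotated with Ppargc1a alone, at a lower level, gave 0.86 ± 0.22 for KO minus WT on HFD (adjusted p = 0.0429 over all rows) and -1.19 ± 0.22 for HFD minus chow in WT (adjusted p = 0.00729 over all rows). Both rows thus ran the same way in both comparisons, and between genotypes on HFD the second row passed and the first did not.

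**Figure D1:**
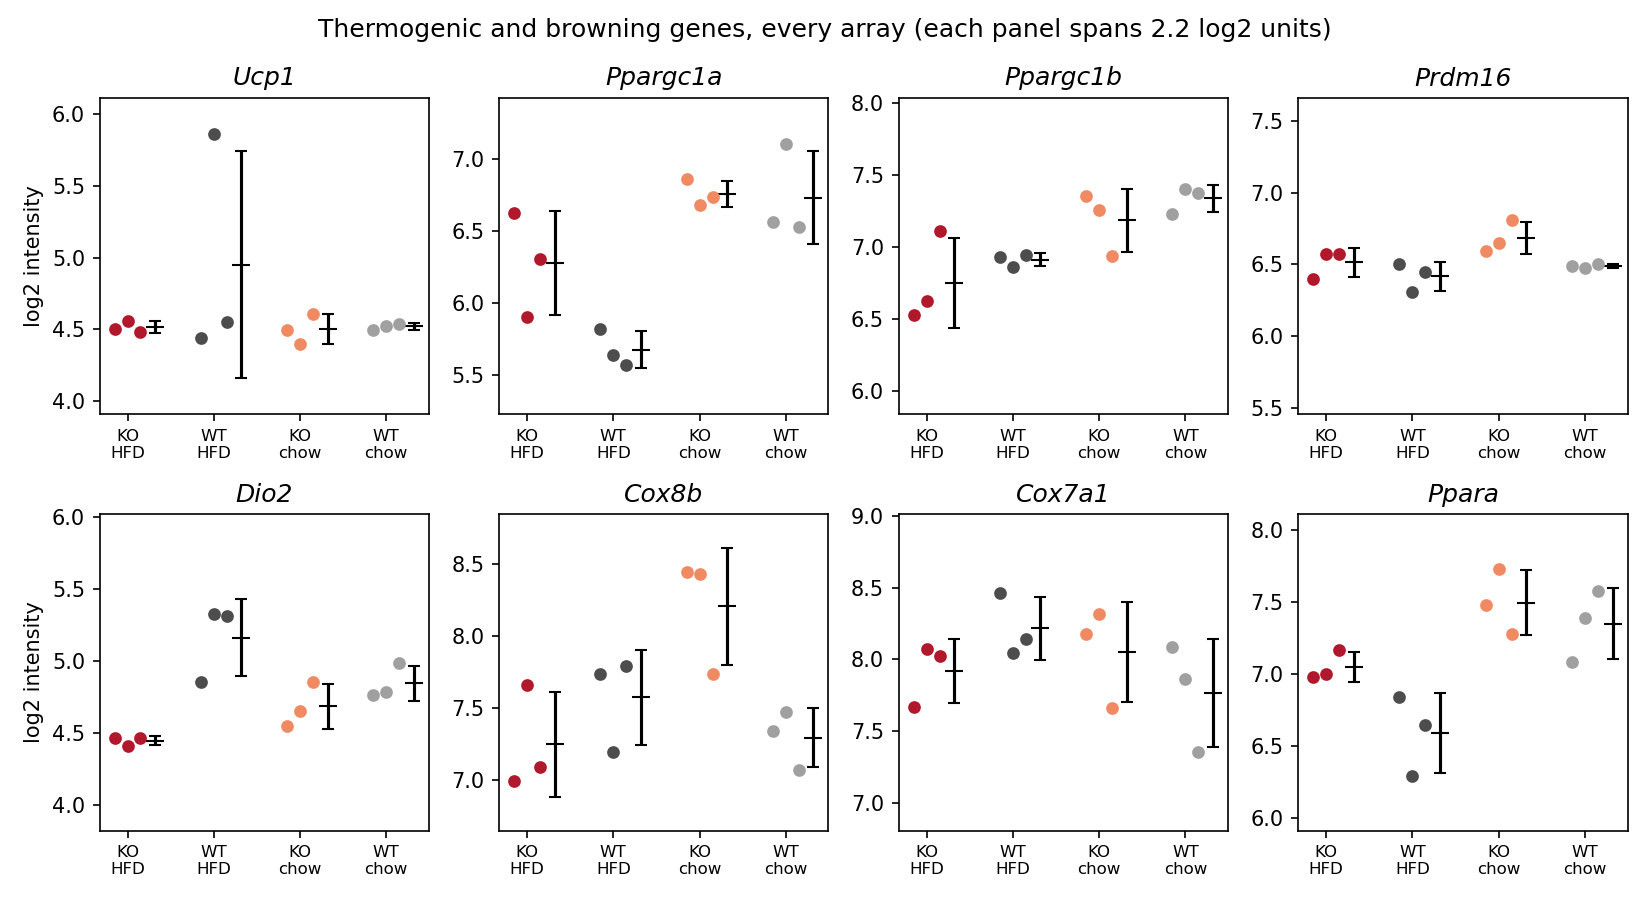
Log2 intensity of each of the 8 measured genes on every array, in the groups KO HFD, WT HFD, KO chow and WT chow. Points are arrays in the order of their replicate number, and the bar beside them is the mean ± SD (n = 3). Ppargc1a and Ppara are lowest on WT HFD arrays, and Dio2 is lowest on KO HFD arrays. Cox8b has its highest group mean on KO chow, and Ucp1 is higher on 1 WT HFD array than on all others.

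Epithelial genes, like Ppargc1a, were higher in mean on chow than on HFD and, among HFD arrays, highest on KO HFD replicate 1. Over 14 epithelial markers, a list chosen after values had been seen, the mean level was 6.75 on KO HFD replicate 1 and 5.83 to 6.02 on the other KO HFD arrays, 5.81 to 6.06 on WT HFD arrays, 6.99 to 7.65 on KO chow arrays, and 6.95 to 7.66 on WT chow arrays. Of these 14 markers, 11 fell on HFD in WT mice and 10 in KO mice, and 0 of them passed between KO and WT mice on HFD. Among all genes 24.1%, 6.34% and 13.5% passed in these comparisons, in the same order. KO HFD replicates 2 and 3 had marker means of 6.02 and 5.83, within the range on WT HFD arrays. Their Ppargc1a values, 5.90 and 6.31, nevertheless lay above every WT HFD array. The part of epithelial content in the Ppargc1a values was not tested. The 3 genes whose values ran closest to Ppargc1a over the 12 arrays were Tkfc (r = 0.979), a kinase of triose and dihydroxyacetone metabolism, Mettl26 (r = 0.970), and Fgfr2 (r = 0.967), a fibroblast growth factor receptor. The points share arrays and groups, so these r values are a description.

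Ppargc1b, the close relative PGC-1β, had 6.53, 6.62 and 7.11 on KO arrays on HFD, 6.93, 6.86 and 6.94 on WT arrays on HFD, 7.36, 7.26 and 6.94 on KO arrays on chow, and 7.23, 7.40 and 7.38 on WT arrays on chow. All WT HFD arrays lay below all WT chow arrays, while the KO groups overlapped. The HFD minus chow difference was -0.43 ± 0.15 in KO mice (adjusted p = 0.103) and -0.43 ± 0.15 in WT mice (adjusted p = 0.0551). The WT value passed under 6 of 21 alternatives, 3 of which were fits without KO HFD replicate 1 (adjusted p = 0.0460), KO HFD replicate 3 (adjusted p = 0.0169) or KO chow replicate 3 (adjusted p = 0.0419). On HFD KO minus WT was -0.16 ± 0.15, and on chow it was -0.15 ± 0.15, neither near the threshold.

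Ppara encodes PPARα, the nuclear receptor that PGC-1α coactivates at fatty acid oxidation genes. It had 6.98, 7.00 and 7.17 on KO arrays on HFD, 6.84, 6.29 and 6.65 on WT arrays on HFD, 7.48, 7.73 and 7.28 on KO arrays on chow, and 7.08, 7.39 and 7.58 on WT arrays on chow. As for Ppargc1a, the WT HFD arrays were the 3 lowest, and the KO HFD arrays lay above them and overlapped with WT chow. Ppara fell on HFD in WT mice by 0.76 ± 0.16, or 1.69-fold (adjusted p = 0.00719), and passed under all 21 alternatives (adjusted p between 0.000442 and 0.0339). The HFD minus chow difference was -0.45 ± 0.16 in KO mice (adjusted p = 0.129). The KO minus WT difference was 0.46 ± 0.16 on HFD with no overlap (adjusted p = 0.0899), and 0.15 ± 0.16 on chow (adjusted p = 0.987). Adipocyte markers and Ppara shared their lowest array: the mean over 15 of them was 12.41 to 12.47 on KO HFD arrays, 11.64 to 12.30 on WT HFD arrays, 12.28 to 12.44 on KO chow arrays and 12.34 to 12.41 on WT chow arrays. WT HFD replicate 2 was lowest in both. Across the other arrays the orders differed, since KO HFD arrays had marker means as high as chow arrays while their Ppara values lay below those on KO chow arrays without overlap. Without WT HFD replicate 2 the KO minus WT difference of Ppara on HFD was 0.31 (adjusted p = 0.314). Without WT HFD replicate 1 it was 0.58 and passed (adjusted p = 0.0343). The part of adipocyte content in the Ppara values was not tested.

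Prdm16, the zinc finger protein that commits cells to the brown and beige fate, varied least among the regulators. It had 6.40, 6.57 and 6.57 on KO arrays on HFD, 6.50, 6.31 and 6.44 on WT arrays on HFD, 6.59, 6.65 and 6.81 on KO arrays on chow, and 6.49, 6.48 and 6.50 on WT arrays on chow. The KO chow arrays were the highest of the 12, yet KO minus WT on chow was 0.19 ± 0.08 (adjusted p = 0.869). On HFD it was 0.10 ± 0.08 (adjusted p = 0.507). The HFD minus chow difference was -0.17 ± 0.08 in KO mice (adjusted p = 0.242) and -0.07 ± 0.08 in WT mice (adjusted p = 0.576).

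Ucp1, the proton channel itself, had 4.51, 4.56 and 4.48 on KO arrays on HFD, 4.44, 5.86 and 4.55 on WT arrays on HFD, 4.50, 4.40 and 4.61 on KO arrays on chow, and 4.50, 4.52 and 4.54 on WT arrays on chow. On 11 of the 12 arrays it stayed between 4.40 and 4.61, and the remaining array, WT HFD replicate 2, alone had a higher value. KO minus WT was -0.44 ± 0.28 on HFD (adjusted p = 0.375) and -0.02 ± 0.28 on chow. Without WT HFD replicate 2 the difference on HFD was 0.02, so the whole of it came from that array. HFD minus chow was 0.01 ± 0.28 in KO mice and 0.43 ± 0.28 in WT mice (adjusted p = 0.313), and the WT value was -0.02 without the same array. Elovl3, a fatty acid elongase induced by cold in mouse brown fat, also stood out there: it had 3.85, 4.22 and 4.20 on KO arrays on HFD, 4.34, 6.16 and 4.82 on WT arrays on HFD, and 3.96 to 4.33 on the 6 chow arrays, and KO minus WT on HFD was -1.02 ± 0.34 (adjusted p = 0.0742). Among WT HFD arrays, however, Ppargc1b (6.86), Prdm16 (6.31), Cox8b (7.19), Cox7a1 (8.04), Ppara (6.29) and Cidea were lowest on replicate 2. Dio2 (5.32) was highest there, and Ppargc1a (5.64) lay between.

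Dio2 encodes the deiodinase that turns thyroxine into active thyroid hormone inside the cell, a step that supports the cold response of brown fat. It had 4.46, 4.41 and 4.46 on KO arrays on HFD, 4.85, 5.32 and 5.31 on WT arrays on HFD, 4.55, 4.65 and 4.86 on KO arrays on chow, and 4.76, 4.79 and 4.98 on WT arrays on chow. The KO HFD arrays were the 3 lowest of the 12 and nearly equal, and none overlapped with the WT HFD arrays. In KO against WT mice on HFD Dio2 fell by 0.72 ± 0.13, or 1.64-fold (adjusted p = 0.00748). Its level was low: the mean over 12 arrays, 4.78, stood at percentile 23.4 among genes, close to Ucp1 at 21.1. Without detection calls these values could not be set against background. On chow KO minus WT was -0.16 ± 0.13 (adjusted p = 0.963). HFD minus chow was -0.24 ± 0.13 in KO mice (adjusted p = 0.295) and 0.32 ± 0.13 in WT mice (adjusted p = 0.0951), and the interaction was -0.56 ± 0.18 (adjusted p = 0.151). Without WT HFD replicate 1 the WT difference was 0.47 (adjusted p = 0.00575) and the interaction -0.71 (adjusted p = 0.00786), and both passed. The genotype call on HFD held in each of the 12 fits that left out 1 array (adjusted p between 0.000201 and 0.0365). It was lost when the fit held only the HFD groups (adjusted p = 0.0593) and when KO HFD replicate 1 and WT HFD replicate 2 were left out together (-0.64, adjusted p = 0.0781).

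Macrophage markers and Dio2 both had their highest group mean on WT HFD arrays. The mean over 16 of them was 9.35 to 9.47 on KO HFD arrays, 10.12 to 11.27 on WT HFD arrays, 8.99 to 9.25 on KO chow arrays and 9.20 to 9.56 on WT chow arrays, and 13 of the 16 were lower in KO than in WT mice on HFD by the test. Of all genes 13.5% passed there in either direction. Within WT HFD, replicate 1 was lowest in both Dio2 and these markers. Its Dio2 value, 4.85, was below that of WT chow replicate 3, 4.98, although its marker mean was above that of every chow array. Across the other groups the markers and Dio2 did not follow 1 order: KO HFD arrays had the lowest Dio2 values with marker levels like those of WT chow arrays. Without KO HFD replicate 1 and WT HFD replicate 2, 3 of the 16 markers were lower in KO than in WT mice on HFD by the test. In that fit 162 of all 19937 genes passed. The part of macrophages in the Dio2 values was not tested.

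**Figure D2:**
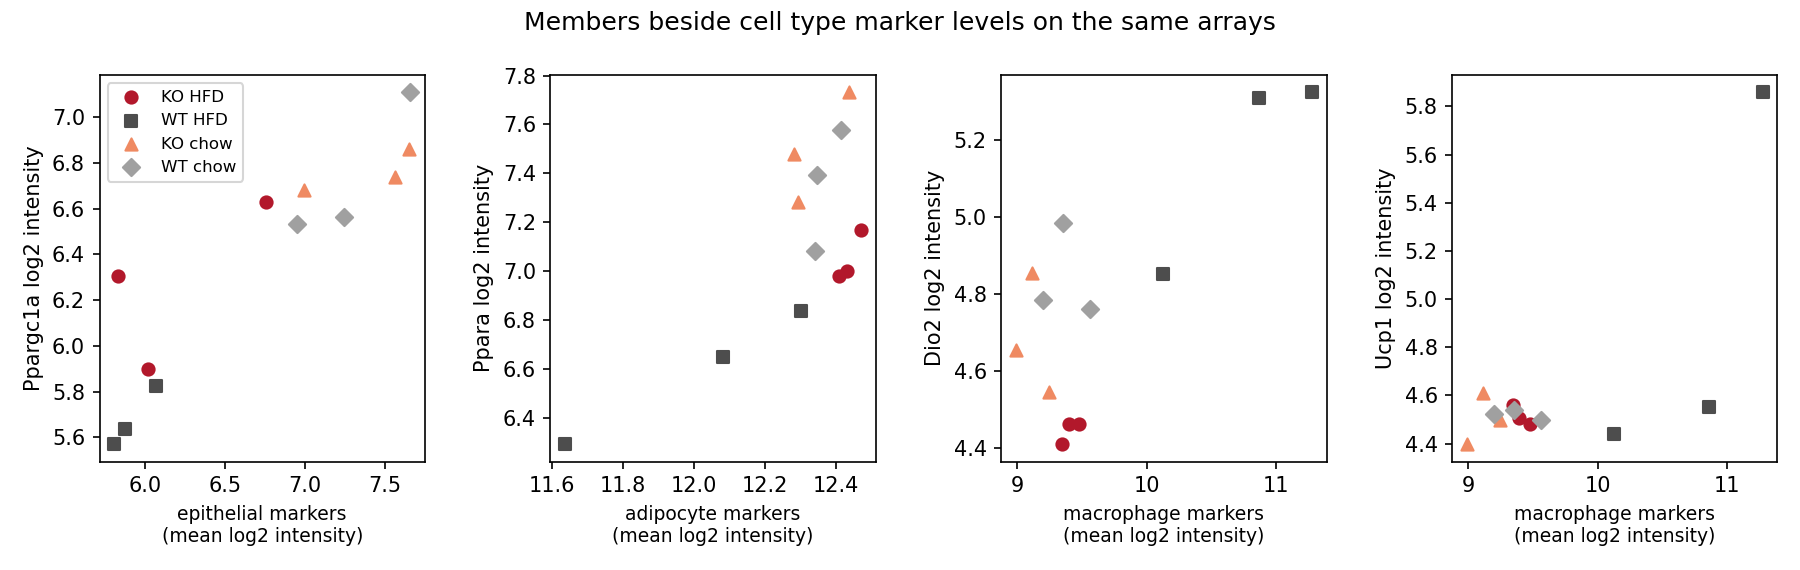
Log2 intensity of Ppargc1a, Ppara, Dio2 and Ucp1 (vertical axes) against the mean log2 intensity of a marker list on the same array (horizontal axes), 1 point per array, coloured and shaped by group. Ppargc1a is mostly higher where 14 epithelial markers are high, but KO HFD replicates 2 and 3 exceed WT HFD arrays at similar marker means. Ppara is lowest where 15 adipocyte markers are lowest. The highest Ucp1 value sits on the array with the highest mean of 16 macrophage markers, 11.27.

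Cox8b and Cox7a1 are subunit forms of cytochrome c oxidase found in muscle and brown fat. Cox8b had 6.99, 7.66 and 7.09 on KO arrays on HFD, 7.73, 7.19 and 7.79 on WT arrays on HFD, 8.45, 8.43 and 7.74 on KO arrays on chow, and 7.34, 7.47 and 7.07 on WT arrays on chow. The KO chow arrays lay above both the KO HFD and the WT chow arrays without overlap, although KO chow replicate 3 was below WT HFD replicate 3. In KO mice Cox8b fell on HFD by 0.96 ± 0.24, or 1.94-fold (adjusted p = 0.0388), while in WT mice HFD minus chow was 0.28 ± 0.24 (adjusted p = 0.447). On chow KO minus WT was 0.91 ± 0.24, a 1.88-fold difference whose unadjusted p was 0.0026 and which did not pass over all genes (adjusted p = 0.664). On HFD KO minus WT was -0.33 ± 0.24 (adjusted p = 0.442), and the interaction was -1.24 ± 0.34 (adjusted p = 0.118).

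The Cox8b call in KO mice was lost under 11 of 21 alternatives. Leaving out KO HFD replicate 1, 2 or 3 gave adjusted p of 0.103, 0.0505 and 0.148, and leaving out KO chow replicate 1 or 2 gave 0.131 and 0.0877. It was also lost without WT HFD replicate 3 (0.0544) or WT chow replicate 1 (0.0580), which bear on it only through the shared variance and the adjustment. The difference itself stayed between -1.19 and -0.83 over the 12 fits that left out 1 array. Skeletal muscle markers were mostly level: the mean over 20 of them was 5.51 to 5.68 on KO HFD arrays, 5.62 to 5.70 on WT HFD arrays, 5.49 to 5.75 on KO chow arrays and 5.62 to 5.79 on WT chow arrays, and Ckm, the muscle creatine kinase, stood between 5.66 and 6.17 on all arrays. Of the 20, only Mb passed for HFD against chow in KO mice. Mb encodes myoglobin, the oxygen store of muscle, which is also made in mouse brown fat, and it is named here after its values were seen. It had 5.47, 5.76 and 5.53 on KO arrays on HFD, 5.82, 5.68 and 5.82 on WT arrays on HFD, 5.90, 6.13 and 6.29 on KO arrays on chow, and 5.94, 5.95 and 5.96 on WT arrays on chow. It thus fell with Cox8b on HFD in KO mice, by 0.52 ± 0.10 (adjusted p = 0.0216), and its part in the Cox8b values was not tested.

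Cox7a1 had 7.67, 8.07 and 8.03 on KO arrays on HFD, 8.47, 8.04 and 8.14 on WT arrays on HFD, 8.18, 8.32 and 7.66 on KO arrays on chow, and 8.08, 7.86 and 7.35 on WT arrays on chow. All groups overlapped and no comparison passed. The difference KO minus WT was -0.29 ± 0.21 on HFD and 0.28 ± 0.21 on chow, and HFD minus chow was -0.13 ± 0.21 in KO mice and 0.45 ± 0.21 in WT mice (adjusted p = 0.160). The signs were those of Cox8b in each comparison.

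**Figure D3:**
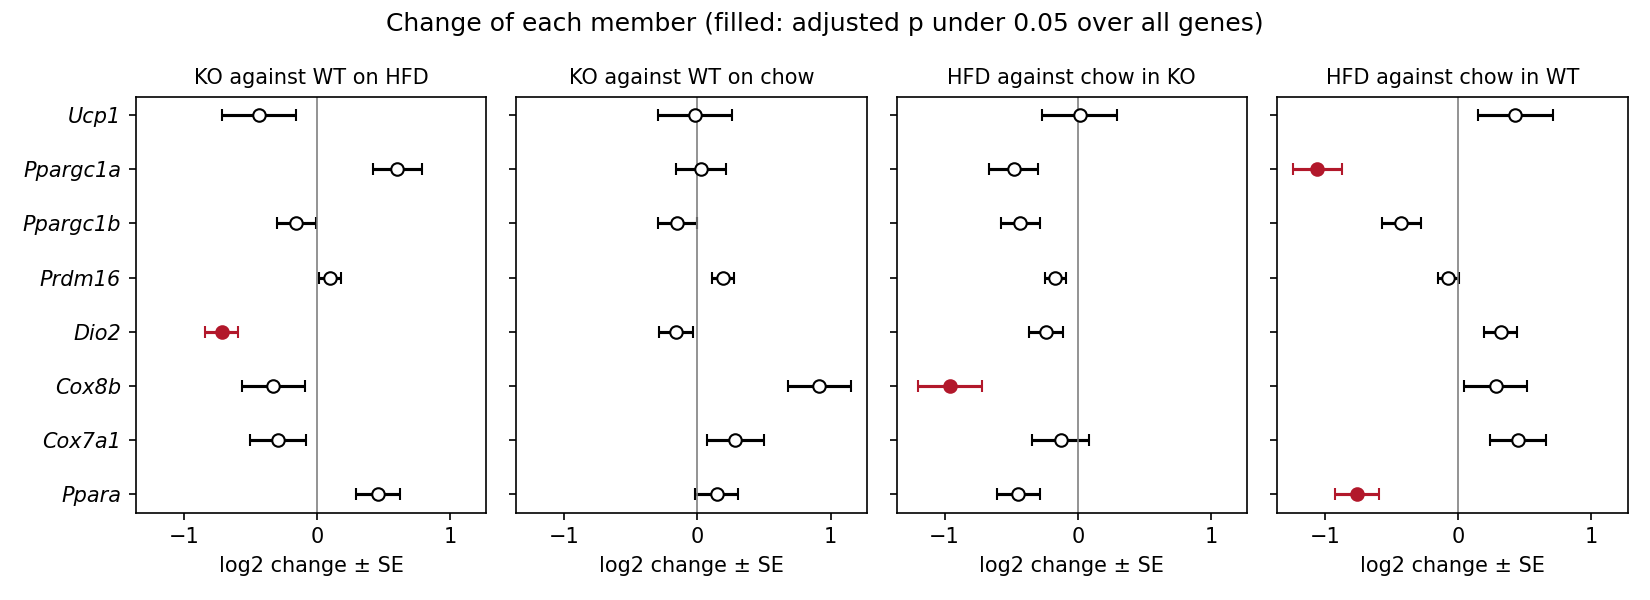
Change of each of the 8 measured genes in 4 comparisons, as the log2 difference ± SE. Filled red points passed at an adjusted p under 0.05 over all genes: Dio2 for KO against WT on HFD, none for KO against WT on chow, Cox8b for HFD against chow in KO, and Ppargc1a and Ppara for HFD against chow in WT.

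Set beside all genes, the members passed about as often as other genes. Between KO and WT mice on HFD, 1 of 8 passed, Dio2, against 13.5% of all genes, and the arrays of 3 of 8 did not overlap, against 30.9% of all genes. Between KO and WT mice on chow, 0 of 8 passed, and 0.0% of all genes did. Neither number sets these 8 genes apart. On chow the arrays of Prdm16 and Cox8b, 2 of 8, did not overlap (11.5% of all genes), and the same 2 genes had an unadjusted p under 0.05 (5.60% of all genes). On HFD against chow in KO mice, 1 of 8 passed, Cox8b, against 6.34% of all genes. The arrays of 5 of 8 did not overlap there, all lower on HFD, namely Ppargc1a, Prdm16, Dio2, Cox8b and Ppara, against 13.7% of all genes that were lower without overlap. On HFD against chow in WT mice, 2 of 8 passed, Ppargc1a and Ppara, against 24.1% of all genes, and 3 of 8 did not overlap, all lower, against 21.6%. The interaction of genotype and diet passed for 0 of 8 members and for 0.00502% of all genes, while 3 of 8, Ppargc1a, Dio2 and Cox8b, had an unadjusted p under 0.05, against 17.5%. The median change of the members was -0.23 for KO against WT on HFD and 0.09 on chow, and -0.34 for HFD against chow in KO and 0.10 in WT, and over all genes each of these medians lay between -0.03 and 0.02. These comparisons share arrays with each other, so their counts are not separate evidence.

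The order of the groups differed from gene to gene. Ppargc1a and Ppara shared 1 order, with KO chow highest, then WT chow, KO HFD and WT HFD, and in both only the last pair, KO HFD and WT HFD, was free of overlap. For Dio2 the order, highest first, was WT HFD, WT chow, KO chow and KO HFD, and again only the last pair was free of overlap. Prdm16 was highest on KO chow, free of overlap with KO HFD next to it. For Ucp1, Ppargc1b, Cox8b and Cox7a1, each group overlapped with its neighbour in the order.

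Other genes known from brown and beige fat were mostly lower on HFD where they passed for diet. Of 32 measured, 0 rose and 8 fell on HFD in KO mice, and 2 rose and 11 fell on HFD in WT mice, while 3 rose and 3 fell in KO against WT on HFD and 0 passed on chow. The share that passed was 25.0% for HFD in KO mice, 40.6% in WT mice and 18.8% for KO against WT on HFD. Over all genes it was 6.34%, 24.1% and 13.5% in the same order. For KO against WT the list had a median change of 0.00 on HFD and 0.07 on chow, and for HFD against chow a median change of -0.15 in KO mice and -0.07 in WT mice. Cidea, a lipid droplet protein abundant in mouse brown fat, had 5.52, 5.68 and 5.69 on KO arrays on HFD, 5.72, 5.19 and 5.37 on WT arrays on HFD, 6.26 to 6.90 on KO arrays on chow and 6.30 to 6.68 on WT arrays on chow. It fell on HFD in both genotypes, by 0.86 ± 0.18 in KO mice (adjusted p = 0.0250) and by 1.02 ± 0.18 in WT mice (adjusted p = 0.00302). Pank1, which makes coenzyme A, fell in KO mice by 0.67 ± 0.13, and Cited4 by 1.00 ± 0.20. Slc27a2, a fatty acid transporter and acyl-CoA synthetase, fell by 2.50 ± 0.57 in KO mice and by 3.14 ± 0.57 in WT mice, and Mpzl2, an adhesion protein, fell by 1.54 ± 0.38 in KO mice and by 2.29 ± 0.38 in WT mice. Slc27a2 had 7.40, 5.12 and 5.06 on the KO HFD arrays, so it was high on the same HFD array as Epcam. Of the 14 epithelial markers, 11 fell on HFD in WT mice and 10 in KO mice. Their part in the falls of this list was not tested. Acot2, a mitochondrial acyl-CoA thioesterase, fell in WT mice by 0.90 ± 0.15, Mtus1 by 0.59 ± 0.10, and the T-box factor Tbx1 by 0.50 ± 0.09.

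Between KO and WT mice on HFD, the genes of this list that rose were Mtus1 by 0.69 ± 0.10, Acot2 by 0.66 ± 0.15 and Ntrk3, a neurotrophin receptor, by 0.52 ± 0.11. Those that fell were Otop1, a proton channel, by 1.47 ± 0.26, the thioesterase Acot11 by 0.59 ± 0.14, and Epsti1 by 0.37 ± 0.11. Otop1 had 5.85, 6.24 and 5.92 on KO arrays on HFD, 6.71, 7.99 and 7.73 on WT arrays on HFD, and 5.75 to 6.11 on the 6 chow arrays, the same order over WT HFD arrays as the macrophage markers. Without KO HFD replicate 1 and WT HFD replicate 2, 0 of 32 passed between genotypes on HFD, and 1 rose and 7 fell on HFD in WT mice. The 8 that fell on HFD in KO mice became 3 without KO HFD replicate 1, 1 without KO chow replicate 3, and 0 without KO HFD replicate 2, KO HFD replicate 3 or KO chow replicate 1.

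**Figure D4:**
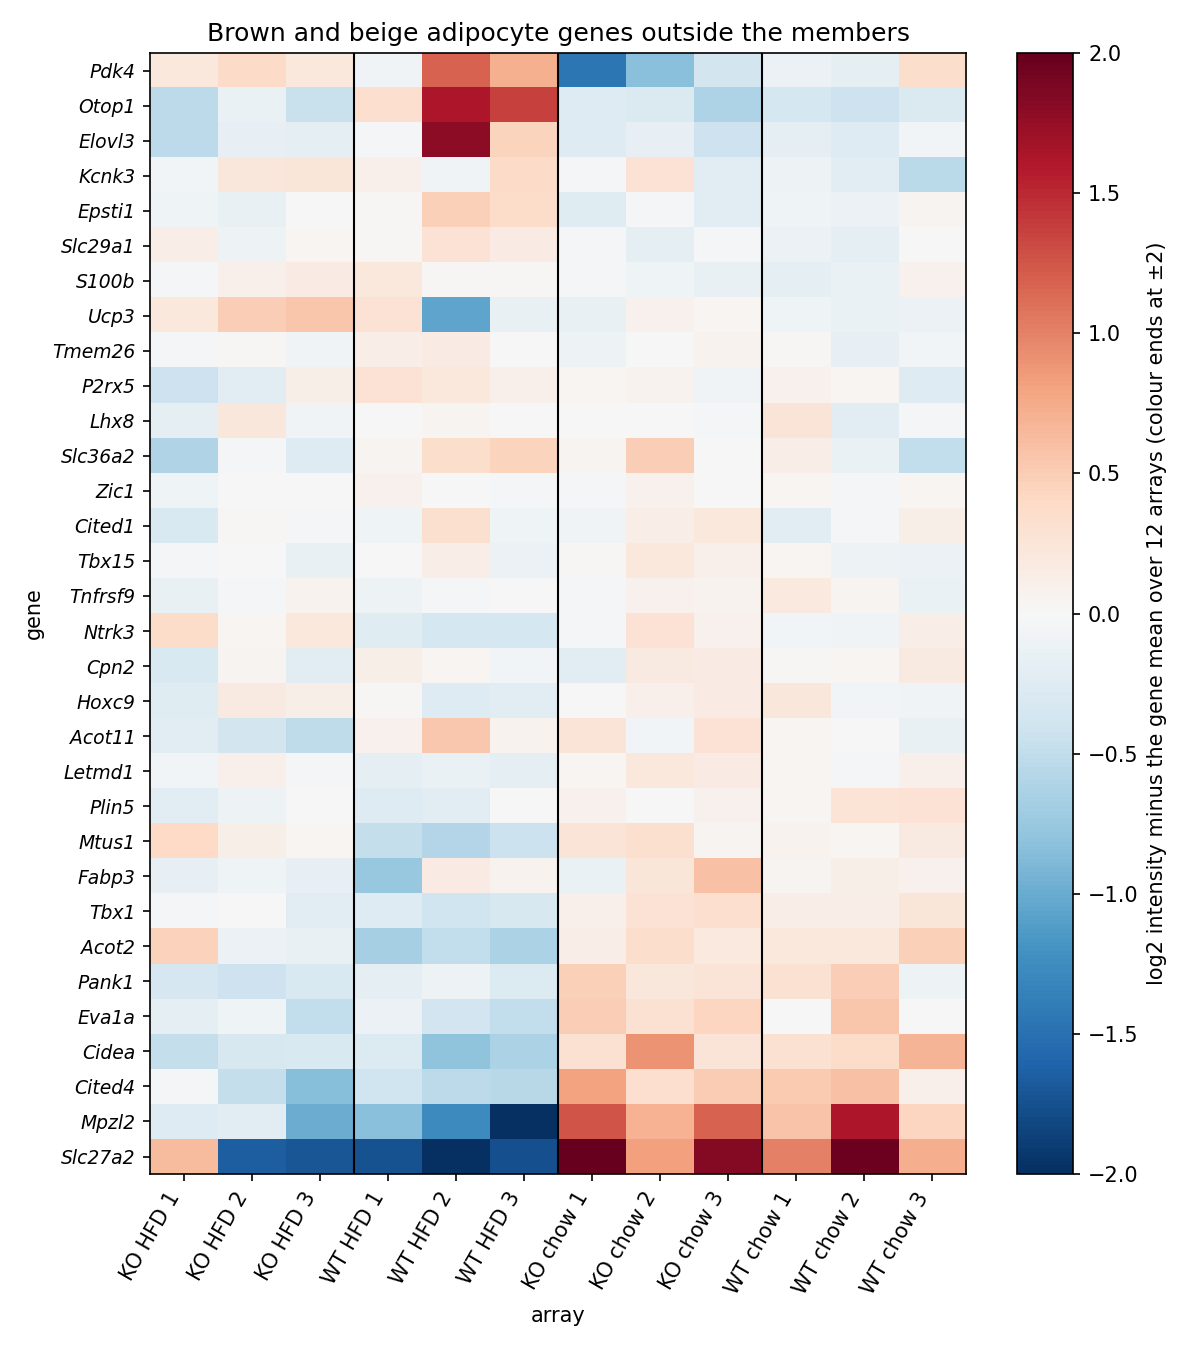
The 32 measured brown and beige fat genes outside the members (rows) on the 12 arrays (columns, 3 per group), as log2 intensity minus the gene's mean over all arrays; the colour ends at ±2. Rows are ordered by the difference between HFD and chow arrays. Slc27a2 and Mpzl2 are low on HFD arrays at the bottom, with KO HFD replicate 1 closer to chow for Slc27a2, and Otop1 and Elovl3 at the top are high on WT HFD arrays.

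Of 34 measured transcriptional regulators of browning, drivers and restrainers together, 10 rose and 0 fell in KO against WT mice on HFD, and 0 passed on chow. On HFD against chow, 0 rose and 2 fell in KO mice, and 2 rose and 11 fell in WT mice. These calls were 29.4% of the list for KO against WT on HFD, 5.88% for HFD in KO mice and 38.2% in WT mice. Among all genes 13.5%, 6.34% and 24.1% passed in the same comparisons. Medians over the list were 0.16 for KO against WT on HFD, 0.03 for the same on chow, 0.01 for HFD against chow in KO mice and -0.10 in WT mice. Ebf2, which opens brown fat genes for PPARγ, had 8.97, 8.66 and 8.74 on KO arrays on HFD, 8.37, 8.25 and 7.91 on WT arrays on HFD, 8.52 to 8.74 on KO arrays on chow and 8.45 to 8.69 on WT arrays on chow. It rose in KO against WT mice on HFD by 0.62 ± 0.13 (adjusted p = 0.0114). Nrip1, a corepressor that holds thermogenic genes down, rose as well, by 0.69 ± 0.13 (adjusted p = 0.0102), as did Nfia, a factor that promotes the brown fat programme, by 0.74 ± 0.14, the thyroid hormone receptor Thra by 0.73 ± 0.15, Cebpa by 0.69 ± 0.13, and Lpin1, a partner of PGC-1α in mouse liver, by 0.57 ± 0.12. A known driver and a known restrainer thus moved to the same side. In WT mice on HFD, Nrip1 fell by 0.91 ± 0.13, Nfia by 0.82 ± 0.14, Lpin1 by 0.63 ± 0.12, Cebpa by 0.62 ± 0.13 and Ncoa1 by 0.39 ± 0.09, while Rbl1, a pocket protein, rose by 0.35 ± 0.09. The oestrogen-related receptors Esrra and Esrrg, partners of PGC-1α, fell on HFD in KO mice by 0.46 ± 0.09 and 0.59 ± 0.15. Of 15 adipocyte markers, a list that also holds Cebpa, 7 rose in KO against WT mice on HFD (0 without both doubted arrays), and their part in these regulators was not tested. Without KO HFD replicate 1 alone, 3 of the 34 regulators passed on HFD, without WT HFD replicate 2 alone 5 did, and without both 0 did. On HFD in WT mice the 13 that passed became 6 without WT HFD replicate 2 and 5 without both arrays.

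Of 18 measured genes of sympathetic and hormonal input, 3 rose and 1 fell in KO against WT mice on HFD, 0 passed on chow, 1 rose and 0 fell on HFD in KO mice, and 2 rose and 5 fell on HFD in WT mice. That made 22.2% for KO against WT on HFD, 5.56% for HFD in KO mice and 38.9% in WT mice. Among all genes 13.5%, 6.34% and 24.1% passed in the same comparisons. The median change of the list was 0.20 for KO against WT on HFD and 0.01 on chow, and 0.12 for HFD against chow in KO mice and -0.03 in WT mice. Pde3b, the phosphodiesterase through which insulin lowers cyclic AMP in fat cells, rose in KO mice on HFD by 0.84 ± 0.14 and fell in WT mice on HFD against chow by 0.85 ± 0.14. The activin receptor Acvr1c rose in KO on HFD by 0.68 ± 0.19 and Bmp4 by 0.83 ± 0.19, and Rgs2, which damps G protein signals, fell by 1.55 ± 0.44. In WT mice Bmp7, which promotes brown fat formation in mice, fell on HFD by 0.97 ± 0.20, and Adcy3, an adenylyl cyclase, rose by 0.69 ± 0.20. Epithelial markers had a median change of -1.26 in the same comparison, and their part in the Bmp7 values was not tested. In KO mice Npr3, which clears natriuretic peptides, rose on HFD by 0.43 ± 0.10. The 4 genotype calls on HFD became 1 with KO HFD replicate 1 left out, 1 with WT HFD replicate 2 left out and 0 with both left out, and the 7 calls for HFD in WT mice became 3 without WT HFD replicate 2.

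Heat can also be made without UCP1, by cycles that spend ATP or reducing power. Of 16 such genes measured, 2 rose and 1 fell in KO against WT on HFD, 0 passed on chow, 0 rose and 2 fell on HFD in KO mice, and 1 rose and 3 fell on HFD in WT mice. The share that passed was 18.8% for KO against WT on HFD, 12.5% for HFD in KO mice and 25.0% in WT mice. Over all genes it was 13.5%, 6.34% and 24.1% in the same order. For KO against WT the list had a median change of -0.11 on HFD and 0.03 on chow, and for HFD against chow a median change of -0.08 in KO mice and 0.02 in WT mice. Gpd2, the mitochondrial glycerol phosphate dehydrogenase, had 9.67, 9.32 and 9.55 on KO arrays on HFD, 9.19, 8.29 and 8.59 on WT arrays on HFD, 10.48, 10.39 and 10.40 on KO arrays on chow, and 9.98, 9.91 and 9.95 on WT arrays on chow. The 4 groups did not overlap with each other, with KO above WT on either diet and HFD below chow in either genotype. KO minus WT was 0.83 ± 0.18 on HFD (adjusted p = 0.0138) and 0.48 ± 0.18 on chow (adjusted p = 0.805), and Gpd2 fell on HFD by 0.91 ± 0.18 in KO mice (adjusted p = 0.0212) and by 1.26 ± 0.18 in WT mice (adjusted p = 0.00134). Gatm, the first enzyme of creatine synthesis, rose on HFD in WT mice by 1.05 ± 0.26. Of the adenine nucleotide carriers, Slc25a4 rose by 0.27 ± 0.08 and Slc25a5 fell by 0.28 ± 0.07 in KO against WT on HFD. Of the 3 genotype calls on HFD, Gpd2 included, 1 call was made with WT HFD replicate 2 left out, and 0 with KO HFD replicate 1 or both left out. The 4 calls for HFD in WT mice became 2 without WT HFD replicate 2.

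Of 29 measured PPARα target and fatty acid oxidation genes, 4 rose and 3 fell in KO against WT mice on HFD, 0 passed on chow, 1 rose and 1 fell on HFD in KO mice, and 5 rose and 5 fell on HFD in WT mice. Medians over the list were 0.07 for KO against WT on HFD, 0.06 for the same on chow, 0.01 for HFD against chow in KO mice and 0.00 in WT mice. Members of the list thus passed on either side. They were 24.1% of it for KO against WT on HFD, 6.90% for HFD in KO mice and 34.5% in WT mice. Among all genes 13.5%, 6.34% and 24.1% passed in the same comparisons. In KO against WT on HFD, Acadvl, the very long chain dehydrogenase, rose by 0.44 ± 0.09, carnitine acetyltransferase Crat by 0.35 ± 0.07 and Etfa, an electron carrier, by 0.32 ± 0.08. In the same comparison the lipid droplet protein Plin2 fell by 0.87 ± 0.18 and Creg1 by 0.92 ± 0.23. Cpt1a, the liver form beside Cpt1b, had 10.16, 10.13 and 10.09 on KO arrays on HFD, 10.47, 10.84 and 10.64 on WT arrays on HFD, 9.77 to 9.94 on KO arrays on chow and 9.90 to 10.15 on WT arrays on chow. It fell in KO against WT on HFD by 0.53 ± 0.10 (adjusted p = 0.00971) and rose on HFD in WT mice by 0.66 ± 0.10 (adjusted p = 0.00187), the opposite sides to Ppara. Angptl4, a lipoprotein lipase inhibitor, rose on HFD in both genotypes, by 0.82 ± 0.17 in KO and by 0.72 ± 0.17 in WT mice, and the thioesterase Acot1 fell by 1.18 ± 0.26 in KO and by 1.12 ± 0.26 in WT mice. The 7 genotype calls of this list on HFD became 2 with KO HFD replicate 1 left out, 4 with WT HFD replicate 2 left out and 0 with both left out. For HFD in WT mice the 10 calls became 6 without WT HFD replicate 2 and 5 without both.

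Of 14 cytochrome c oxidase subunits outside the members, 3 rose and 0 fell in KO against WT on HFD, and 0 passed on chow. On HFD against chow, 0 rose and 2 fell in KO mice, and 0 rose and 3 fell in WT mice. The calls were 21.4% of the list for KO against WT on HFD, against 13.5% of all genes. For HFD in WT mice 21.4% of the list passed, against 24.1% of all genes. For HFD in KO mice 2 of 14 passed, against 6.34% of all genes. The median change of the list was 0.16 for KO against WT on HFD and 0.18 on chow, and -0.19 for HFD against chow in KO mice and -0.13 in WT mice. The ubiquitous partner of Cox8b, Cox8a, had 10.17, 10.32 and 10.18 on KO arrays on HFD, 10.02, 9.58 and 9.87 on WT arrays on HFD, 10.31 to 10.43 on KO arrays on chow and 10.12 to 10.29 on WT arrays on chow. It rose in KO against WT on HFD by 0.40 ± 0.10 (adjusted p = 0.0280) and fell on HFD in WT mice by 0.40 ± 0.10 (adjusted p = 0.0185), whereas Cox8b had values of -0.33 and 0.28 in the same comparisons. Cox4i1 and Cox6c, both ubiquitous, rose with Cox8a in KO on HFD, by 0.27 ± 0.07 and 0.36 ± 0.09. Cox4i1 and Cox5a fell on HFD in KO mice, by 0.30 ± 0.07 and 0.41 ± 0.09. Cox7a2, the partner of Cox7a1, passed in no comparison. None of the 3 genotype calls on HFD, Cox8a included, passed with KO HFD replicate 1, WT HFD replicate 2 or both left out, and the 2 calls for HFD in KO mice became 0 without KO HFD replicate 1. Of 23 genes of mitochondrial biogenesis, 5 rose and 0 fell in KO against WT on HFD, 0 passed on chow, 1 rose and 2 fell on HFD in KO mice, and 2 rose and 7 fell on HFD in WT mice. That made 21.7% for KO against WT on HFD, 13.0% for HFD in KO mice and 39.1% in WT mice, beside the same shares of all genes. For KO against WT the list had a median change of 0.13 on HFD and 0.03 on chow, and for HFD against chow a median change of -0.02 in KO mice and -0.10 in WT mice. Among them the deacylases Sirt3 and Sirt5 rose in KO on HFD by 0.37 ± 0.10 and 0.40 ± 0.11, and Twnk, the mitochondrial DNA helicase, by 0.35 ± 0.08. Prkaa2, a catalytic subunit of AMP kinase, fell on HFD by 0.48 ± 0.11 in KO and by 0.78 ± 0.11 in WT mice. The 5 genotype calls of the biogenesis list on HFD became 2 with WT HFD replicate 2 left out, and 0 with KO HFD replicate 1 or both left out. Its 9 calls for HFD in WT mice became 4 without both.

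The remaining lists cover isoform partners and other cell types of the tissue, and the genes named from them were chosen after their values were seen. For scale, 13.5% of all genes passed for KO against WT on HFD, 6.34% for HFD in KO mice and 24.1% in WT mice. Of 11 isoform partners of the members, which include Cox8a and Cpt1a, 1 rose and 1 fell in KO against WT on HFD, 0 passed on HFD in KO mice (4 with an unadjusted p under 0.05), and 2 rose and 1 fell on HFD in WT mice. Of 8 markers of sympathetic nerves and Schwann cells, 0 passed between genotypes on HFD. With HFD, Syp, a synaptic vesicle protein, rose by 1.34 ± 0.13 in KO mice and by 1.32 ± 0.13 in WT mice, and Ddc, an enzyme of catecholamine synthesis that kidney and other epithelia also make, fell by 1.37 ± 0.30 in KO mice and by 1.28 ± 0.30 in WT mice. Uchl1, a neuronal ubiquitin hydrolase, rose in WT mice by 0.61 ± 0.18, and the remaining 5 passed in no comparison. Of 9 mesothelial markers, Krt8 and Krt18, keratins shared by most simple epithelia, fell on HFD in both genotypes, Krt8 by 1.74 ± 0.45 in KO and 1.84 ± 0.45 in WT mice. Of 9 stromal progenitor markers, 4 rose on HFD in WT mice, Fap, Col1a1, Col3a1 and Thy1, and Col1a1, a chain of the main fibrillar collagen, fell in KO against WT on HFD by 0.86 ± 0.18. Of 12 endothelial markers, Tek, an angiopoietin receptor, rose in KO against WT on HFD by 0.51 ± 0.14, and no other passed. Of 10 cardiac and slow muscle markers, Tnnt2 alone passed, falling by 0.60 ± 0.20 on HFD in WT mice. Of 20 skeletal muscle markers, 1 fell in KO against WT on HFD, Pvalb, which rose on HFD in WT mice while 3 others fell. For 8 T cell markers 0 passed in any comparison with all arrays, and 3 had an unadjusted p under 0.05 for KO against WT on HFD. Macrophage markers rose on HFD in WT mice in 14 of 16 cases and in KO mice in 0 of 16, where 0 also had an unadjusted p under 0.05. Of 15 adipocyte markers, 7 rose and 1 fell in KO against WT on HFD, 1 rose and 0 fell on HFD in KO mice, and 1 rose and 6 fell on HFD in WT mice. The 8 genotype calls of adipocyte markers on HFD became 2 with KO HFD replicate 1 left out, 3 with WT HFD replicate 2 left out and 0 with both left out, and the 7 for HFD in WT mice became 4 without WT HFD replicate 2. The genotype calls of Tek and Pvalb on HFD were lost without either array, that of Col1a1 without KO HFD replicate 1, and that of Tnnt2 for HFD in WT mice without WT HFD replicate 2. Without WT HFD replicate 2, 1 T cell marker fell in KO against WT on HFD, and 1 T cell and 2 endothelial markers rose on HFD in WT mice. Between KO and WT mice on chow no gene of any list passed. At an unadjusted p under 0.05 on chow stood 5 of the 14 cytochrome c oxidase subunits and 0 to 2 genes of each other list, against 5.60% of all genes.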

How the data were processed

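White adipose tissue RNA of 12 samples was hybridised to 1-colour Affymetrix whole-transcript arrays, 1 array a sample. Per the labels' protocols, RNA was extracted with the mirVana kit, amplified and labelled with biotin, and the submitters' processing notes name affy. The sources used here do not give how signals were background corrected, summarized and normalized. The table that the authors deposited has 34760 rows of log2 intensity, from 2.09 to 14.2, with array medians between 5.78 and 5.92. Base 2 was inferred from that range, and how the arrays were scaled stays unknown. The platform annotation gives 1 symbol to 21640 rows, several to 1321 and none to 11799. A gene with several rows (954 genes) was read from its brightest row, which left 19937 genes. The number of arrays limits the precision.

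A linear model with 4 group means was fitted to all 12 arrays, as deposited and without a filter on dim rows, in limma 3.58.1 under R 4.3.3 (8 residual degrees of freedom, eBayes, two-sided, Benjamini-Hochberg adjustment over 19937 genes, threshold 0.05). It was tested on simulated data. Compared were KO with WT on each diet, HFD with chow in each genotype, and the interaction. Since separate animals are not stated, the p-values cover the spread between these samples alone, which may be technical. Members and gene lists were chosen with earlier results of these data known. Named are the members and Ahnak, fixed partners (Cox8a, Cox7a2, Cpt1a) and regulators or brown fat genes (Cidea, Elovl3, Ebf2, Esrra, Esrrg, Nrip1), up to 6 list genes with the smallest p among those that passed in each comparison, the first entries of the marker lists, and the 3 genes closest to a member whose group means span at least 1. Marker lists covered skeletal muscle, cardiac and slow muscle, adipocytes, macrophages, endothelium, stromal progenitors, mesothelium, T cells, and sympathetic nerve and Schwann cells, with epithelial markers added after values were seen. Some list entries have no row of 1 symbol and were not analysed here.

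Replicate numbers recur across groups, but the labels tie them to nothing: deviations of 18 same-numbered pairs correlated at -0.41 to 0.38, with 4 above 0.1, so samples were not treated as pairs. Alternatives were a fit of the compared groups alone, array weights, a trended robust variance, genes above the median level, quantile normalization, the mean of a gene's rows, all rows tested, a replicate block, and leaving out each array. Leaving out KO HFD replicate 1 with WT HFD replicate 2 was chosen after seeing the data.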

Additional observations from a re-analysis of the deposited data

How the results depend on the processing

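The 40 changes of members (8 genes in 5 contrasts) gave 812 values under the alternatives, of which 756 kept direction and side of the threshold, 13 lost the call, 21 gained it and 22 changed sign. Except where a fit held fewer arrays or genes, the cause was not tested. Between KO and WT on HFD, 1 member and 2691 genes passed, against 0 members and 4 genes in a fit of the compared groups alone, 4 and 7648 with array weights, and 0 and 162 without KO HFD replicate 1 and WT HFD replicate 2. There 0 members passed among genes above the median level, where Dio2 was not tested, and 2 passed with the mean of a gene's rows. For HFD against chow in WT, 2 members and 4802 genes passed, against 5 and 9985 with array weights. For HFD against chow in KO, 1 member and 1264 genes passed, against 0 and 585 with only the compared groups, 0 and 837 with all rows tested, 0 and 740 with a replicate block, 0 members without both doubted arrays, and 2137 genes with array weights. The interaction passed for 0 members and 1 gene, against 2 and 2819 with array weights, 85 genes above the median level, 3 with all rows tested, 0 with the replicate block and 0 without both doubted arrays. The array weights gave 1 array, WT HFD replicate 3, a weight of 20.0 and the others 0.38 to 1.68, so that setting leans on 1 array.

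Leaving out 1 array at a time, the genes that passed numbered 904 to 3930 for KO against WT on HFD, 0 to 1 on chow, 62 to 1509 for HFD against chow in KO, 3072 to 5285 in WT, and 0 to 2060 for the interaction. Members that passed numbered 1 to 3, 0 to 0, 0 to 1, 2 to 3 and 0 to 1 in the same order. Both upper ends for the interaction came without WT HFD replicate 1. The log2 difference of Ucp1 ran from -0.69 to 0.019 for KO against WT on HFD, -0.073 to 0.033 on chow, -0.038 to 0.067 for HFD against chow in KO, -0.025 to 0.68 in WT, and -0.67 to 0.038 for the interaction. Without both doubted arrays it was 0.024 for KO against WT on HFD, -0.025 for HFD against chow in WT and 0.043 for the interaction. Ppargc1a ran from -0.074 to 0.21 for KO against WT on chow, Cox7a1 from -0.33 to 0.0048 for HFD against chow in KO, and the Ppargc1b interaction from -0.18 to 0.11, being 0.013 with array weights and 0.082 without both doubted arrays. The replicate block turned 1 member call, Cox8b for HFD against chow in KO (adjusted p = 0.0595), and no other. With 3 arrays a group and no detection calls, low values such as those of Ucp1 and Dio2 could not be set against background. Over the 12 fits without 1 array, genes of the 7 thermogenic lists outside the members that passed for HFD against chow in KO reached 0 at the lowest in each list.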
